A study of Homo sapiens with 8 samples.

Results

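Amino acids enter and leave cells, and move between cytosol and lysosome, through membrane carriers of the solute carrier (SLC) gene families. The families SLC1A, SLC3A, SLC6A, SLC7A, SLC36A, SLC38A and SLC43A were taken by gene symbol: 43 of the 16082 rows of the deposited count table carry such a name. Of these, 24 had at least 10 counts in 4 or more of the 8 libraries, and 19 lay under that floor. One of the 24, SLC7A6OS, is no carrier: it is the gene on the opposite strand of SLC7A6, so 23 carriers remained.

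The libraries were made from poly(A) RNA of KYSE150, a long-used human cell line of esophageal squamous cell carcinoma. There were 4 libraries of shHNRNPC cells, in which a short hairpin RNA lowered HNRNPC, an hnRNP protein of the nucleus that packages new transcripts, and 4 of control cells. All 8 came from this 1 cell line, with no other treatment given in the labels. Not given in the sources used here: the hairpin sequence, the kind of control vector, and whether the cells were a pool or a clone. Separate cultures are not stated in any label, and p-values therefore measure the spread between these libraries, which may be technical.

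Several carriers work in pairs. The single-span glycoprotein SLC3A2 (CD98 heavy chain) carries light chains of the SLC7 family to the cell surface, among them SLC7A5 (LAT1, large neutral amino acids such as leucine), SLC7A6 (y+LAT2, which exchanges arginine for neutral amino acids with sodium) and SLC7A11 (xCT, which takes up cystine for glutathione synthesis in exchange for glutamate). Other carriers act alone, such as SLC1A5 (ASCT2, glutamine and other small neutral amino acids) and SLC38A2 (SNAT2, sodium-driven uptake). In squamous tumours SLC7A5, SLC7A11 and SLC1A5 are known for supplying leucine, cystine and glutamine. ATF4, the transcription factor of the amino acid response, is known to induce many of these genes through a composite promoter word that it binds with C/EBP proteins.

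Library totals ran between 28323403 and 34913500 counts. Levels are in TMM-scaled CPM (each count relative to its library's total), and a gene is called when edgeR's quasi-likelihood test gave a Benjamini-Hochberg adjusted p below 0.05 over all 12001 genes tested. HNRNPC was at 33.9 ± 1.81 CPM in the shHNRNPC libraries and 587 ± 12.5 CPM in the control libraries (SD, n = 4 each), with a log2 fold change of -4.12. Squamous epithelial markers were present, with a summed level of 2573 to 2631 CPM in shHNRNPC libraries and 1616 to 1661 CPM in control libraries. Of these 8 markers 5 rose, KRT5 (1123 CPM in shHNRNPC and 564.5 CPM in control libraries) and KRT17 (299 CPM in shHNRNPC and 92.3 CPM in control libraries) among them, and KRT6A, KRT14 and TP63 fell (log2 fold changes -1.62, -0.77 and -0.45). Of the 7 mesenchymal markers in the table the summed level was 11.8 to 13.4 CPM in shHNRNPC and 10.4 to 13.5 CPM in control libraries. The 4 endothelial markers reached 1.24 to 1.84 CPM in shHNRNPC and 2.16 to 2.45 CPM in control libraries, and the 2 leukocyte markers at most 0.391 CPM in any library. The 4 neural markers summed to 13.7 to 14.1 CPM in shHNRNPC and 23.2 to 25.4 CPM in control libraries, nearly all of it SYT1. No marker in the table was at 0 in all 8 libraries, and the part of these lists in the results was not tested. In bulk RNA, fewer cells that express a gene and less of its RNA per cell cannot be told apart.

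The carriers went both ways. Among the 23, 11 fell, 8 rose and 4 were not called. Over all genes tested 38.6% fell and 38.7% rose, together 77.3%, so the share of carriers called is near the background. At least 2-fold changes were found in SLC7A11, SLC1A4, SLC6A9 and SLC38A9, which fell, and in SLC6A6, which rose, against 5.25% of all genes that fell and 3.17% that rose by that much. The median log2 fold change of the 23 was -0.08, beside -0.01 for all genes tested. Without SLC7A5, SLC6A8 and SLC7A6, whose reads may be shared with copies or overlapping genes, 11 of 20 fell and 5 rose, with a median of -0.27. The genes left out here had all risen. SLC1A5, which fell and has 23.8% of its exon bases overlapping other genes, was kept. The lower median therefore reflects the removal of risers only. CPM values of the 2 groups did not overlap for 20 of the 23 carriers, where the share over all genes was 70.8%. All 24 genes over the floor had at least 10 counts in each of the 8 libraries, with a lowest single count of 137, so none entered through 1 group alone.

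**Figure D1:**
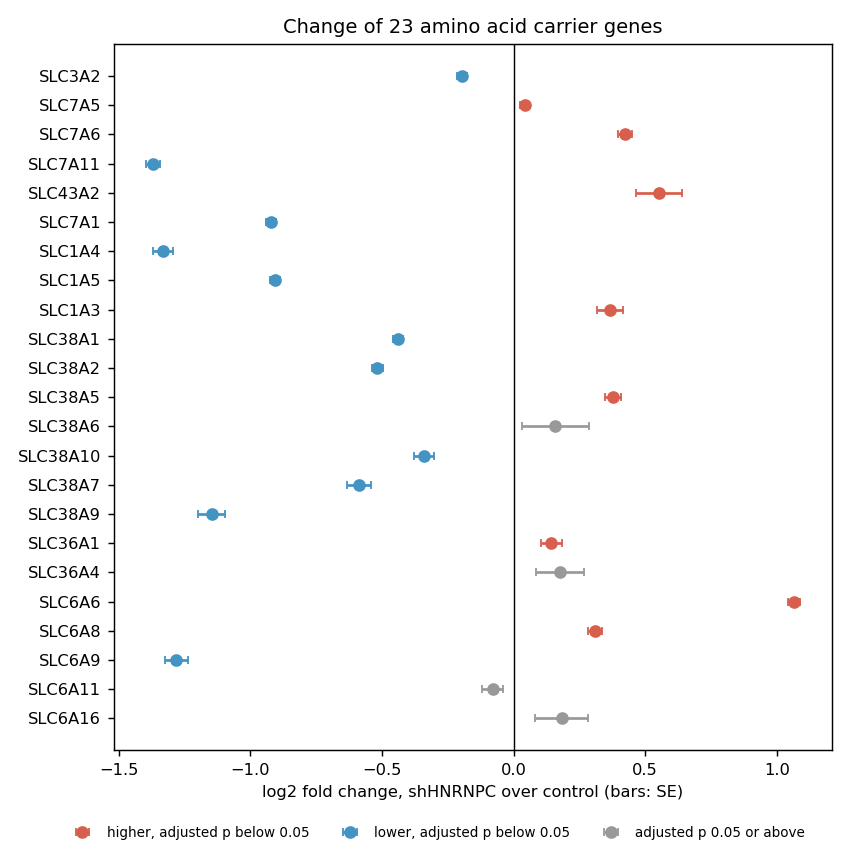
The plot gives the log2 fold change (shHNRNPC over control) with its standard error for the 23 carriers, grouped by role from the heavy chain SLC3A2 down to the SLC6A genes, with colour for the call. SLC7A11 (-1.37), SLC1A4 (-1.33), SLC6A9 (-1.28) and SLC38A9 (-1.15) lie farthest to the left and SLC6A6 (1.06) farthest to the right, while SLC7A5 (0.04) sits beside the zero line.

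A pair of short sequence words was searched for in the carrier genes. One is the composite C/EBP-ATF word TGATGNAA, searched on both strands in RefSeq promoters (GRCh38.p14, 250 bases before to 50 bases after the start), and present in 3.67% of 27305 promoters. Promoters were found for 33 of the 43 genes and for 21 of the 23 carriers. Windows from the 4 carriers that hold the word are shown, with the matching bases in capitals, because 3 of these carriers fell and 1 rose.

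SLC7A1 promoter (chr13:29595663-29595692, minus strand): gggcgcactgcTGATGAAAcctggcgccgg

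SLC38A1 promoter (chr12:46266502-46266531, minus strand): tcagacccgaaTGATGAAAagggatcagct

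SLC3A2 promoter (chr11:62881725-62881748, plus strand, word on the opposite strand): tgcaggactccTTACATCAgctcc

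SLC1A3 promoter (chr5:36596357-36596386, plus strand): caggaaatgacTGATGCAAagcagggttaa

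Relative to the start of the promoter searched, the word begins at position 7 in SLC7A1, -4 in SLC38A1, 37 in SLC3A2 and -220 in SLC1A3. A single promoter per gene was searched. For SLC3A2 (chromosome 11 from 62856109 to 62888860) and SLC38A1 (chromosome 12 from 46183063 to 46269043) it belongs to a start inside the gene. Promoters at other starts of a gene were not searched. Over all tested genes with a promoter, 46.5% of the 170 with the word fell and 38.4% of the 9719 without it. Among carriers 3 of 4 with the word and 7 of 17 without it fell. The 2 carriers outside this count are SLC7A11, with the largest fall of the 23, and SLC6A6, with the largest rise. A match is only a run of letters, and binding was not measured.

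The other is the word GAATGAT in 3′ UTRs annotated by GENCODE release 29, which earlier results of these data had picked out, so that its counts are only a description. It was present in 13.4% of 11842 tested genes with a 3′ UTR of at least 50 bases, counted where at least 1 annotated coding transcript holds it. The sites of the 5 carriers over the floor that hold it are shown, with the word in capitals, because SLC7A11 and SLC38A9 are among the carriers that fell at least 2-fold.

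SLC7A11 (chr4:138168945-138168973, minus strand): gattttaaaaaGAATGATtctccttacac

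SLC38A9 (chr5:55626290-55626318, minus strand): aggggcaaaaaGAATGATcttagtgtctt

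SLC38A10 (chr17:81245064-81245092, minus strand): gcagtgactcaGAATGATaattattatga

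SLC7A6 (chr16:68299944-68299972, plus strand): ataaagtcaaaGAATGATggcaggtagga

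SLC38A6 (chr14:61030910-61030938, plus strand): aggaggggagtGAATGATattgctgtcat

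Of these 5, SLC7A11, SLC38A9 and SLC38A10 fell, SLC7A6 rose and SLC38A6 was not called. Of the 18 carriers without the word, 8 fell and 7 rose. Over all tested genes 53.7% of 1584 with the word fell and 36.4% of 10258 without it. The 3′ UTRs of genes with the word were also longer, with a median of 3190 bases, against 1191 bases for genes without it. Among the carriers it was the other way, with medians of 649 bases with the word and 2525 bases without it. A part of UTR length in the difference over all tested genes was not tested.

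SLC3A2, the shared heavy chain, fell slightly. It was at 640, 656, 648 and 646 CPM in the shHNRNPC libraries, against 746, 737, 722 and 762 CPM in the control libraries. All 4 shHNRNPC libraries were below all 4 control libraries. Its log2 fold change was -0.20 (SE 0.0186) with an edgeR adjusted p = 7.2e-15. By exact permutation of the 70 assignments of libraries, two-sided, p was 0.0286, the lowest value these allow, and it was the same for each carrier whose groups did not overlap. SLC3A1, the heavy chain that serves SLC7A9 in kidney and gut, had at most 4 counts in any library.

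SLC7A5 was the most abundant carrier and hardly moved. Its CPM were 2279, 2307, 2287 and 2337 in shHNRNPC libraries, against 2236, 2201, 2288 and 2218 in control libraries, so that control replicate 3 lay within the shHNRNPC range. The log2 fold change of 0.04 (SE 0.0169, edgeR adjusted p = 0.0196) is a rise of 1.03-fold. Exact permutation, two-sided, put p at 0.0857, and the call was lost with upper-quartile factors (edgeR adjusted p = 0.384) and with library totals alone (0.217). It was also lost without shHNRNPC replicate 4 (edgeR adjusted p = 0.0511) or control replicate 2 (0.0858), and over all alternatives the adjusted p ran from 0.00338 to 0.384. SLC7A5 is uncertain for another reason: pseudogene transcripts on chromosome 16 match it closely, SLC7A5P1 at 96.6% over 537 bases, SLC7A5P2 at 96.3% over 536 bases and SMG1P3 at 95.7% over 604 bases, and none of them has a row in the table.

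SLC7A11 showed the largest fall among the carriers. It stood at 94.8, 93.1, 92.2 and 98.6 CPM in shHNRNPC libraries, against 238, 240, 248 and 253 CPM in control libraries. All 4 shHNRNPC libraries were far below the control range, and their mean was 38.7% of the control mean. This is a log2 fold change of -1.37 (SE 0.0256; edgeR adjusted p = 1.1e-50). The gene lies on chromosome 4 from 138164097 to 138242349 (RefSeq, GRCh38), and 9.0% of its exon bases overlap the antisense gene SLC7A11-AS1. Its 3′ UTR site shown above begins 2994 bases after the stop codon.

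SLC7A6 rose, to 165, 173, 168 and 173 CPM in shHNRNPC libraries, against 126, 127, 132 and 121 CPM in control libraries. All shHNRNPC libraries were above all control libraries, at a log2 fold change of 0.42 (SE 0.026; edgeR adjusted p = 4.2e-23). This value is uncertain because 55.6% of its exon bases overlap genes on the opposite strand, SLC7A6OS among them, and for the strand setting of the counting nothing is stated. SLC7A6OS itself was at 64.5 ± 0.812 CPM in shHNRNPC and 59.3 ± 2.99 CPM in control libraries (log2 fold change 0.12, edgeR adjusted p = 0.00207). The word GAATGAT of SLC7A6 lies within the stretch that SLC7A6OS spans.

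Per unit of heavy chain, the light chains shifted against each other. Levels per exon length (CPM per kb of the union of exons) were used to compare genes. The ratio of SLC7A11 to SLC3A2 was 0.0785 ± 0.00276 in shHNRNPC libraries and 0.177 ± 0.00564 in control libraries (SD, n = 4 each). For SLC7A5 the ratio was 3.88 ± 0.0492 in shHNRNPC and 3.29 ± 0.119 in control libraries, and for SLC7A6 it was 0.179 ± 0.00297 in shHNRNPC and 0.117 ± 0.00685 in control libraries. Of the summed level of these 3 light chains, SLC7A11 made up 1.90 ± 0.043% in shHNRNPC and 4.94 ± 0.142% in control libraries. The sum itself was 518 ± 6.12 CPM per kb in shHNRNPC and 513 ± 8.50 CPM per kb in control libraries. By longest transcript the ratios to SLC3A2 were less than those by union of exons in both groups: 1.74 ± 0.0221 in shHNRNPC and 1.48 ± 0.0535 in control libraries for SLC7A5, and 0.0337 ± 0.00119 in shHNRNPC and 0.0760 ± 0.00242 in control libraries for SLC7A11. The choice of length scales both groups alike. These are mRNA ratios, and the proteins at the surface were not measured.

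**Figure D2:**
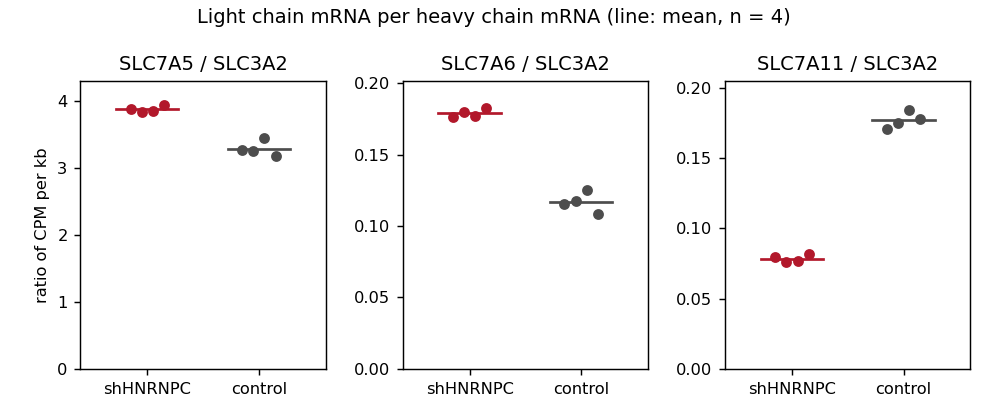
Each panel gives the ratio of a light chain's level (CPM per kb of exon) to that of SLC3A2 in each library, shHNRNPC left and control right, with the mean as a line. The SLC7A5 and SLC7A6 ratios were higher in all 4 shHNRNPC libraries, and the SLC7A11 ratio was lower in all 4.

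Light chains SLC7A7, SLC7A8 and SLC7A9 were under the floor. SLC7A7 had 2 to 7 counts in shHNRNPC and 2 to 4 counts in control libraries, and SLC7A8 had 0 to 6 in shHNRNPC and 0 to 1 in control libraries. SLC7A9 never exceeded 1 count. In the SLC43 family, whose system L carriers work without a heavy chain, SLC43A2 (LAT4) rose at a low level, with 11.6 ± 0.452 CPM in shHNRNPC and 7.91 ± 0.652 CPM in control libraries (SD, n = 4 each). The groups did not overlap, at a log2 fold change of 0.55 (SE 0.0873; edgeR adjusted p = 7.4e-08). SLC43A3, which carries purine bases, was under the floor.

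SLC7A1 (CAT1), the uptake carrier for arginine and lysine that needs no heavy chain, fell. It was at 284, 280, 280 and 281 CPM in shHNRNPC libraries, against 538, 523, 544 and 527 CPM in control libraries. The shHNRNPC group was at 52.8% of control and far below its range, with a log2 fold change of -0.92 (SE 0.0196; edgeR adjusted p = 1.5e-47). SLC7A1 lies on chromosome 13 from 29509414 to 29595688. Its relative SLC7A2 never exceeded 4 counts in a library.

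Both neutral exchangers of the SLC1 family fell. SLC1A5, the glutamine exchanger, was at 264, 259, 267 and 267 CPM in shHNRNPC libraries, against 497, 481, 504 and 501 CPM in control libraries. The groups were far apart, with the shHNRNPC mean at 53.3% of the control mean (log2 fold change -0.91, SE 0.0202, edgeR adjusted p = 1.6e-46). Its reads are less certain than most, since 23.8% of its exon bases overlap other genes. SLC1A4 (ASCT1), which exchanges serine, alanine and cysteine, was at 28.23, 30.28, 29.04 and 29.93 CPM in shHNRNPC libraries, against 76.3, 73.0, 73.5 and 73.1 CPM in control libraries. No library of one group came near the other, at a log2 fold change of -1.33 (SE 0.0393; edgeR adjusted p = 9.6e-40). SLC1A4 lies on chromosome 2 from 64988479 to 65023865 and SLC1A5 on chromosome 19 from 46774883 to 46788594.

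SLC1A3 (EAAT1), a glutamate and aspartate carrier best known from astrocytes, went the other way. It was at 34.6 to 40.5 CPM in shHNRNPC libraries, against 27.6 to 30.8 CPM in control libraries. The groups did not overlap, though shHNRNPC replicate 1 was the closest to the control range (log2 fold change 0.37, SE 0.0489, edgeR adjusted p = 7.7e-10). The remaining glutamate carriers in the table, SLC1A1, SLC1A2 and SLC1A7, had at most 2 counts in any library.

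In the SLC38 family 5 of 7 genes over the floor fell and 1 rose. Over all genes tested 38.6% fell and 38.7% rose, together 77.3%. SLC38A1 (SNAT1), a sodium-driven glutamine carrier, was at 432, 434, 432 and 432 CPM in shHNRNPC libraries, against 578, 586, 593 and 589 CPM in control libraries. SLC38A2 was at 276, 281, 279 and 283 CPM in shHNRNPC libraries, against 397, 394, 399 and 412 CPM in control libraries. Both system A genes were thus lower in all 4 shHNRNPC libraries, by log2 fold changes of -0.44 (SE 0.0185) and -0.52 (SE 0.0203), with edgeR adjusted p = 2.5e-31 and 4.8e-33. SLC38A5 (SNAT5), a system N carrier for glutamine, histidine and serine, rose instead, with 98.6 ± 2.33 CPM in shHNRNPC and 75.8 ± 1.26 CPM in control libraries (SD, n = 4 each; log2 fold change 0.38, edgeR adjusted p = 6.8e-18).

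The lysosomal members of the family, SLC38A7 and SLC38A9, fell. SLC38A9, which exports amino acids from the lysosome and signals arginine to the mTORC1 kinase, was at 20.2, 19.3, 19.8 and 19.6 CPM in shHNRNPC libraries, against 40.5, 44.3, 45.3 and 44.7 CPM in control libraries. All shHNRNPC libraries lay close together, at 45.2% of the control mean. The change was -1.15 on the log2 scale (SE 0.0496; edgeR adjusted p = 8.9e-31), and the 3′ UTR site shown above begins 187 bases after the stop codon of the transcript that carries it. SLC38A7 (SNAT7), a lysosomal exporter of glutamine and asparagine, averaged 26.5 ± 1.081 CPM in shHNRNPC and 39.9 ± 0.955 CPM in control libraries (log2 fold change -0.59, edgeR adjusted p = 8.3e-18). SLC38A10 was also lower (log2 fold change -0.34, SE 0.037, edgeR adjusted p = 3.1e-12), with 55.3 to 64.7 CPM in shHNRNPC and 72.1 to 77.4 CPM in control libraries. SLC38A6, at 5.18 ± 0.820 CPM in shHNRNPC and 4.66 ± 0.677 CPM in control libraries, was not called (log2 fold change 0.16, SE 0.128, edgeR adjusted p = 0.255).

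The carriers of the SLC36 family changed little. SLC36A1 (PAT1), which exports small neutral amino acids from lysosomes, had 52.0 to 56.9 CPM in shHNRNPC libraries and 46.7 to 51.4 CPM in control libraries (log2 fold change 0.14, SE 0.0394, edgeR adjusted p = 9.2e-04). SLC36A4 was at 9.02 to 9.99 CPM in shHNRNPC and 7.77 to 9.65 CPM in control libraries, and the groups overlapped (log2 fold change 0.18, SE 0.0903, edgeR adjusted p = 0.0686). It was called without shHNRNPC replicate 4 (edgeR adjusted p = 0.0445) or control replicate 3 (0.0233), within a range of 0.0233 to 0.256 over all alternatives.

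The SLC6 family holds sodium- and chloride-driven carriers, and its members over the floor split. SLC6A6 (TauT), the taurine carrier, was at 275, 272, 276 and 278 CPM in shHNRNPC libraries, against 132, 133, 134 and 128 CPM in control libraries. It was the only carrier that rose at least 2-fold, with non-overlapping groups and a log2 fold change of 1.06 (SE 0.0229; edgeR adjusted p = 2.5e-47). SLC6A9 (GlyT1), the glycine carrier, was at 23.4, 22.2, 23.9 and 24.9 CPM in shHNRNPC libraries, against 58.6, 56.8, 57.4 and 56.3 CPM in control libraries. All 4 shHNRNPC libraries were below all 4 control libraries (log2 fold change -1.28, SE 0.0444, edgeR adjusted p = 6.5e-36). SLC6A6 lies on chromosome 3 from 14402576 to 14489349, and SLC6A9 on chromosome 1 from 43996483 to 44031462.

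SLC6A8, the creatine carrier, was higher, with 131 ± 1.64 CPM in shHNRNPC and 105 ± 1.62 CPM in control libraries (log2 fold change 0.31, edgeR adjusted p = 1.2e-16). It is uncertain because the pseudogene SLC6A10P on chromosome 16 matches it at 96.4% over 2062 bases and has no row in the table. SLC6A11 (GAT3), a GABA carrier of astrocytes, was at 44.6 ± 0.80 CPM in shHNRNPC and 47.1 ± 1.10 CPM in control libraries. Its groups did not overlap, yet it was not called (log2 fold change -0.08, edgeR adjusted p = 0.0683). With upper-quartile factors (edgeR adjusted p = 0.0146) or library totals alone (0.0206) it was called lower, within a range of 0.0146 to 0.320 over all alternatives. SLC6A16, an orphan, was at 7.32 ± 0.204 CPM in shHNRNPC and 6.45 ± 0.554 CPM in control libraries (log2 fold change 0.18, edgeR adjusted p = 0.0942), not called although the groups did not overlap.

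**Figure D3:**
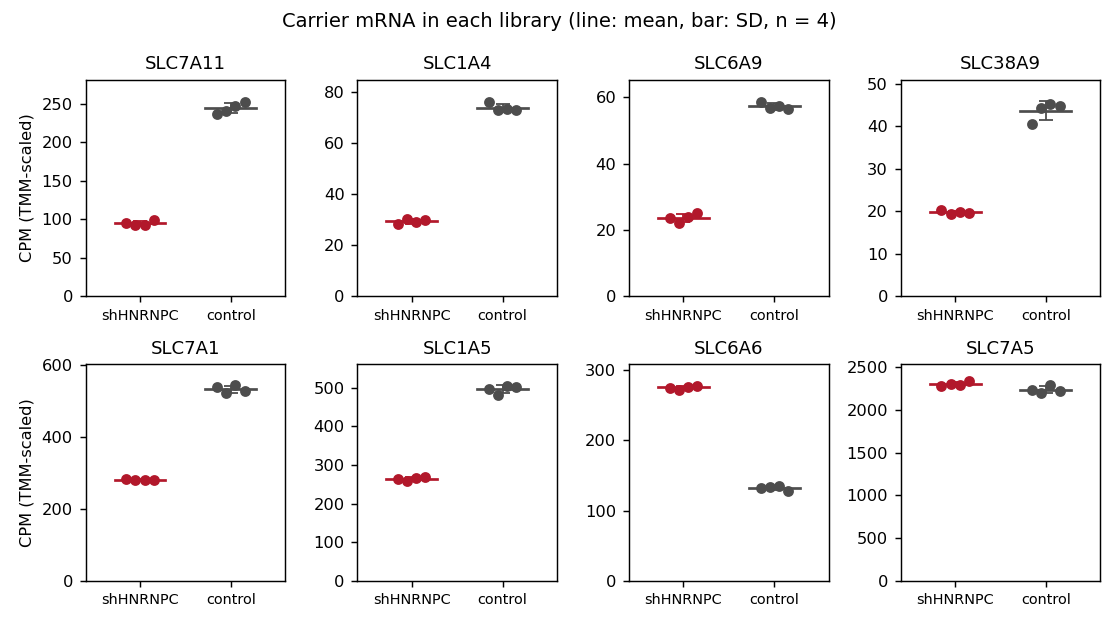
Each panel shows TMM-scaled CPM of a carrier in each library, shHNRNPC left and control right, with the mean and SD of the 4 libraries, and each vertical axis starts at 0. The groups are separate for SLC7A11, SLC1A4, SLC6A9, SLC38A9, SLC7A1, SLC1A5 and SLC6A6, while for SLC7A5 they overlap.

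The 19 carriers under the floor were silent or close to it, among them SLC1A1, SLC1A2, SLC1A7, SLC3A1, SLC38A4, SLC43A1, SLC43A3, SLC6A2, SLC6A3, SLC6A4, SLC6A7, SLC6A13, SLC6A15, SLC6A20, SLC7A2, SLC7A7, SLC7A8 and SLC7A9. They include the noradrenaline, dopamine and serotonin carriers SLC6A2, SLC6A3 and SLC6A4. For 13 of the 19 no library had more than 4 counts. The nearest to the floor were SLC6A7, a proline carrier of brain, with at least 10 counts in 3 libraries and a highest count of 16, and SLC43A1 and SLC43A3, with at least 10 counts in 2 libraries each. None of the 19 was tested. A count of 0 allows up to 3 counts, or 0.0859 to 0.106 CPM depending on the library, and this limit covers counting error only.

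Per exon length, SLC7A5 had the highest level of the carriers in both groups. Its level was 485 ± 5.46 CPM per kb in shHNRNPC and 471 ± 7.90 CPM per kb in control libraries (SD, n = 4 each), or 49.8% of the summed carrier level in shHNRNPC and 42.3% in control libraries. In shHNRNPC libraries SLC3A2 (125 ± 1.32 CPM per kb), SLC1A5 (79.4 ± 1.14), SLC38A1 (43.2 ± 0.133) and SLC38A2 (42.4 ± 0.471) followed. In control libraries the next levels were SLC1A5 (149 ± 3.08 CPM per kb), SLC3A2 (143 ± 3.23), SLC7A1 (69.3 ± 1.24) and SLC38A2 (60.7 ± 1.254). The ranges of SLC1A5 and SLC3A2 overlapped in control libraries and were apart in shHNRNPC libraries. This order depends on the length used. Per kb of the longest transcript in place of the union of exons, SLC3A2 was at 291 ± 3.08 CPM per kb in shHNRNPC and 334 ± 7.53 CPM per kb in control libraries, above SLC1A5 in both, with 91.8 ± 1.31 in shHNRNPC and 172 ± 3.56 in control libraries. SLC7A5 was again highest, at 508 ± 5.71 CPM per kb in shHNRNPC and 493 ± 8.26 CPM per kb in control libraries, or 40.1% of the summed carrier level in shHNRNPC and 34.0% in control libraries. Of the 22 neighbouring pairs in the order by union of exons, 4 overlapped over the shHNRNPC libraries and 7 over the control libraries. By union of exons, the summed level of the 23 carriers was 974 ± 7.85 CPM per kb in shHNRNPC and 1113 ± 12.3 CPM per kb in control libraries. By longest transcript it was 1264 ± 9.39 CPM per kb in shHNRNPC and 1450 ± 13.4 CPM per kb in control libraries.

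**Figure D4:**
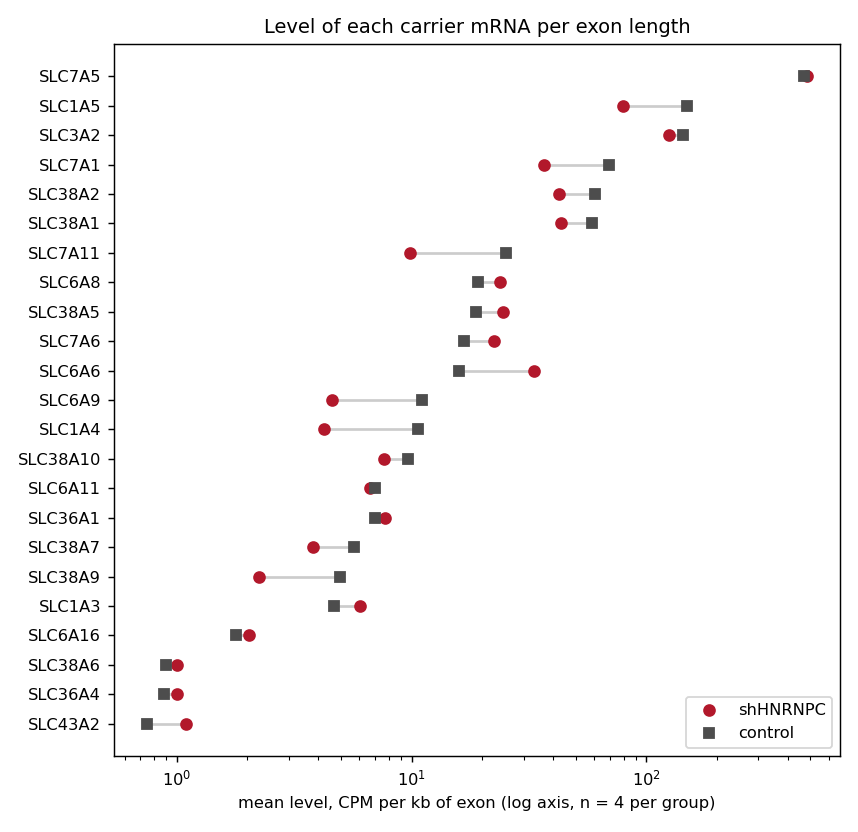
The plot gives the mean level of each of the 23 carriers in CPM per kb of exon on a log axis, with circles for shHNRNPC and squares for control (n = 4 each), ordered by the control level. SLC7A5 leads both groups, at 485 CPM per kb in shHNRNPC and 471 CPM per kb in control cells, SLC1A5 lies below SLC3A2 in shHNRNPC cells and beside it in control cells (below it in both by longest transcript), and SLC6A6 lies above SLC6A8, SLC38A5 and SLC7A6 in shHNRNPC cells.

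Genes around the carriers were taken from lists, chosen with earlier results of these data known, and are given by count beside the background of 38.7% higher and 38.6% lower. Of 36 tested regulators and targets of ATF4, 28 fell and 7 rose, with a median log2 fold change of -0.80. STC2, a secreted glycoprotein, was at 28.7 CPM in shHNRNPC and 141 CPM in control libraries (log2 fold change -2.29), and the glutathione-degrading enzyme CHAC1 (-2.26), the mitochondrial enzyme PCK2 (-2.14) and the transcription factor CEBPB (-2.07) fell as well. ATF4 itself, named after its value was seen, was at 362 CPM in shHNRNPC and 593 CPM in control libraries (log2 fold change -0.71, edgeR adjusted p = 2.9e-41).

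Genes of mTORC1 and of the signalling upstream of it, amino acid sensors among them, split evenly, with 15 of 37 higher and 15 lower (median log2 fold change -0.05). The leucine sensor SESN2 (-1.83) and the scaffold subunit KICS2 (-1.01) fell, and LAMTOR4 (1.21), a subunit of the lysosomal Ragulator complex, and CASTOR2 (1.18), a relative of the arginine sensor CASTOR1, rose. Of 15 tested amino acid carriers outside these families 8 rose and 2 fell (median log2 fold change 0.09). The 2 became 1 without shHNRNPC replicate 1, shHNRNPC replicate 4 or control replicate 2. The peptide and histidine carrier SLC15A4 (0.71) and the mitochondrial aspartate and glutamate carriers SLC25A13 (0.65) and SLC25A22 (0.56) rose, while SLC29A3 (-0.80), a lysosomal nucleoside carrier that the list holds, fell.

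Of 16 tested partners and regulators of carriers at the surface 11 were higher and 3 lower (median log2 fold change 0.16). The ubiquitin ligase NEDD4 was at 103 CPM in shHNRNPC and 33.15 CPM in control libraries (log2 fold change 1.64), and LAPTM4B (0.77), which recruits SLC7A5 and SLC3A2 to lysosomes, and CAV1 (0.58) rose, whereas EGFR fell (-0.84). Of 25 tested enzymes of glutathione, glutamine and proline metabolism 12 were lower and 7 higher (median log2 fold change -0.15). GPT2 (-1.29), the proline synthesis enzyme PYCR1 (-1.22, with 29.7% of exon bases overlapping another gene) and the glutathione synthetase GSS (-0.57) fell.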

How the data were processed

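The deposited file holds raw read counts per gene and library, not normalised, for 4 shHNRNPC and 4 control libraries. Per the series design text reads were cleaned with fastp, and the submitters' processing notes name hg38. Not given in the sources used here: aligner, counter, annotation, strand setting. Overlapping genes therefore cannot be separated.

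Genes were filtered with edgeR's filterByExpr (minimum count 10, minimum total 15), scaled with TMM factors and tested with the quasi-likelihood F test (robust) by group. Adjusted p-values (Benjamini-Hochberg) cover all 12001 genes. Each SE is |log2 fold change| over the root of F. The edgeR test was also run on simulated counts, with the same spread set for all genes and only a small share of them changed. In these data 77.3% of the genes tested were called, so that run cannot check the scaling or the test under such widespread change. Software was R 4.3.3, edgeR 4.0.16, limma 3.58.1, DESeq2 1.42.0 and Python 3.11.15.

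Members and lists were chosen with earlier results of these data known. Carriers past the threshold with at least a 2-fold change, the 5 highest per kb, heavy chains and light chains are given in full. From each list the text names up to 4 called genes with the largest change and at least 1 CPM. Exon lengths and overlaps came from GENCODE release 29, promoters and positions from RefSeq (GRCh38). Near-identical copies were matches of at least 95% identity over 500 bases. Equal replicate numbers did not pair the libraries: correlations of same-numbered deviations ran from -0.0552 to 0.017. Within groups, chi-square per degree of freedom of 2.66 to 3.70 showed no library deposited again.
Alternatives were DESeq2, limma-voom, RLE, upper-quartile and library-total scaling, other count filters, the replicate block and libraries left out. Of the 19 genes under the floor, 1 is not reported here.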

Additional observations from a re-analysis of the deposited data

Results flagged for a closer look

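In 50 groups of 4 libraries (HNRNPC and the 24 genes over the floor, in each condition), 3 had a library whose gap to the nearest of the others exceeded Dixon's critical share of the group's range. By chance about 1 in 20 such groups shows this. SLC36A4 was at 9.02 CPM in shHNRNPC replicate 4, below the 9.87 to 9.99 CPM of the other shHNRNPC libraries. SLC38A1 was at 434.5 CPM in shHNRNPC replicate 2, above the 431.8 to 431.9 CPM of the others. SLC1A4 was at 76.3 CPM in control replicate 1, above the 73.0 to 73.5 CPM of the other control libraries.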

How the results depend on the processing

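Over 19 alternatives, 456 values of the 24 genes over the floor were recomputed: 446 kept their direction and their side of the threshold, 6 lost the call, 4 gained it and 0 reversed. The 6 losses were all of SLC7A5, also when shHNRNPC replicates 1 and 4 (edgeR adjusted p = 0.0849) or 2 and 3 (0.0517) were left out together, and the cause was not tested. The counts of carriers that rose and fell were 7 to 9 and 11 to 12. Of the other amino acid carriers that fell, 2 in all libraries, leaving out 1 library gave 1 to 2, and leaving out shHNRNPC replicates 1 and 4 together gave 1. With the replicate block, 8 carriers rose and 11 fell, and over all genes 4605 rose and 4614 fell; it changed no call among the carriers. Upper-quartile factors moved the median of all genes to -0.03, and by longest transcript 4 of the 5 highest control carriers per kb were shared, SLC38A1 replacing SLC7A1. Low counts limit what can be said of the silent carriers.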

Other observations

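SLC1A5 and SLC7A5 are known to work in sequence, the first bringing in glutamine that the second exchanges for leucine. The ratio of their levels per exon length was 0.165, 0.160, 0.166 and 0.163 in the shHNRNPC libraries, against 0.316, 0.311, 0.314 and 0.322 in the control libraries. The ranges were apart, with SLC7A5 held near its control level and SLC1A5 lower. The copies of SLC7A5 elsewhere on chromosome 16 and the 23.8% of SLC1A5 exon bases that overlap other genes bear on both terms, and their part was not tested. SLC7A1 took 3.76% of the summed carrier level in shHNRNPC and 6.23% in control libraries, and SLC3A2 12.8% in shHNRNPC and 12.9% in control libraries (by longest transcript, 23.04% in shHNRNPC and 23.02% in control libraries).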
